A study of Mus musculus with 9 samples.

Results

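Windows over transfer RNA (tRNA) genes were examined in a PRO-seq time course of mouse embryonic stem cells. They are the counted windows of 600 bp that overlap a gene annotated as tRNA in RefSeq on a nuclear chromosome of mm10 (GRCm38). There were 224 such windows among 174289 in all, and their choice used positions alone and no counts. PRO-seq lets polymerases that sit on DNA extend their RNA in isolated nuclei by a labelled base, and so maps them whichever polymerase they are.

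All samples carried a Firre KO and a Firre inducible transgene, where Firre, on the X chromosome, encodes a long non-coding RNA kept in the nucleus. Cells were grown on gelatin in serum with LIF, PD0325901 and CHIR99021, and gave 3 libraries without doxycycline (0 min) and 3 each after 15 and 30 min of 1 ng/μL doxycycline. Doxycycline was never given to cells that lacked the transgene, so drug and transgene cannot be told apart. The labels do not say whether libraries came from separate cultures, so p-values rest on variation among libraries that may be technical.

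RNA polymerase III reads the short tRNA genes. The factor TFIIIC binds promoter elements inside the gene, called the A box and the B box, TFIIIB is then placed upstream of the start, and the polymerase ends at a short run of T. The products carry amino acids to the ribosome. In the mouse many tRNA genes lie in clusters, and the largest shares a stretch of chromosome 13 with the replication-dependent histone genes, which RNA polymerase II reads.

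The sequences of 4 of these genes are given because each lies whole under a counted window and inside a RefSeq promoter sequence of GRCm38.p6. They serve to mark where the internal promoter elements lie. The gene table gives no strand, so the strand was taken as the one with a B box match past the middle of the gene. A B box match was thus a condition of printing a gene. Each runs 5′ to 3′ along that strand. Capitals mark bases 8 to 18, where the A box lies, and a match to GTTCNANNC, the B box. Gene names hold the one-letter amino acid and then the anticodon, so n-TRtcg5 is an arginine tRNA gene with anticodon TCG.
n-TRtcg5: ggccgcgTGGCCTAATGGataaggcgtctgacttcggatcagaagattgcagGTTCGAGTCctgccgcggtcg
n-TAagc16: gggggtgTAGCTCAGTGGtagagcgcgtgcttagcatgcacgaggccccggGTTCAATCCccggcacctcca
n-TVcac9: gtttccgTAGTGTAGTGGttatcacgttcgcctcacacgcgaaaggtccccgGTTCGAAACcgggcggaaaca
n-TTagt9: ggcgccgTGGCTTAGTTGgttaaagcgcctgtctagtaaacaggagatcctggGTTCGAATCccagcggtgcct

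The first, n-TRtcg5, lies at chr7:79466419-79466491 on the plus strand, within the promoter sequence of Polg, the gene of the mitochondrial DNA polymerase. Its window had 48.4, 55.5 and 58.5 CPM (counts scaled to library size with TMM factors) in libraries 1 to 3 at 0 min, 39.0, 49.2 and 61.7 CPM at 15 min and 45.2, 51.6 and 51.4 CPM at 30 min. The alanine gene n-TAagc16 (chr13:21222586-21222657, plus strand) and the valine gene n-TVcac9 (chr13:23446142-23446214, minus strand) lie in the chromosome 13 cluster. For n-TAagc16 the window had 11.3, 18.1 and 12.8 CPM at 0 min, 5.17, 14.9 and 12.1 CPM at 15 min and 14.0, 18.1 and 15.9 CPM at 30 min. The better filled of 2 windows over n-TVcac9 had 12.2, 22.4 and 19.7 CPM, then 2.67, 16.4 and 15.3 CPM, and then 14.2, 14.4 and 16.4 CPM. In all 3 genes the times overlapped, and the lowest value of 9 was that of 15 min library 1. The threonine gene n-TTagt9 (chr7:35234770-35234843, minus strand) had few reads, a mean of 11.9 counts a library. A run of TTTT began 13 bp after n-TRtcg5, 2 bp after n-TAagc16 and 13 bp after n-TVcac9, while only 5 bases after n-TTagt9 were at hand. Searched on both strands, the B box letters GTTCNANNC were in 9 of the 32 RefSeq promoter sequences (28.1%) that overlap a tRNA window, against 9.36% of all 32851.

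The libraries held 3813365 to 5980366 reads in windows, and 3 reads equal at most 0.787 CPM in any of them. Over the 8 windows in the Firre gene the summed level ran from 2.48 to 4.92 CPM without doxycycline, from 274 to 338 CPM after 15 min and from 776 to 791 CPM after 30 min, which follows the labels. Windows of pluripotency genes summed to between 1367 and 1534 CPM, those of feeder fibroblast markers to between 0.932 and 3.50 CPM, with the Col1a1 and Twist2 windows under 1 CPM on average. Primitive endoderm markers summed to between 9.15 and 17.5 CPM and trophectoderm markers to between 1.70 and 5.21 CPM.

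Of 403 nuclear tRNA genes on the chromosomes, 209 (51.9%) lay under at least 1 window and 194 under none. The share differed by chromosome. On chromosome 13, 75 of 105 tRNA genes had a window, and on chromosome 14, 11 of 12 had one. On chromosome 6 it was 2 of 53, and 48 of those genes are for cysteine tRNA, of which 1 had a window. Cysteine genes elsewhere had a window in 5 of 8 cases. By amino acid the share was lowest for cysteine (10.7%) and highest for tyrosine (80%). Many tRNA genes are near-identical copies, and how reads that map to several places were treated is not given in the sources used here, so both a missing window and a low count are uncertain for such genes.

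A window held 1 tRNA gene in 205 cases, 2 in 18 cases and 3 in 1 case, and 194 windows held at least 1 whole tRNA gene. The window centre, which marks the middle of a called bidirectional region, lay a median of 96.5 bp from the tRNA gene and inside it for 6 windows. The called regions were narrower over tRNA genes, with a median width of 228 bp against 342 bp for all windows. Another window overlapped 95 of the 224 (42.4%, against 29.2% of all), and 32 tRNA genes lay under more than 1 window. Overlapping windows could hold very different counts: the 3 windows over n-TQttg1, a glutamine tRNA gene, had means of 12.7, 0.340 and 0.0789 CPM.

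tRNA windows were better filled than most. Their median level over the 9 libraries was 10.5 CPM, against 0.616 CPM for all windows. Of the 224, 172 (76.8%) passed the filter on low counts and were tested, against 31.2% of all windows, while 52 were not tested and 4 of those had no read in any library. Of those 4, 3 overlapped another window. The centre was within 1 kb of either end of a coding gene for 33 (14.7%, against 10.4% of all), inside a coding gene for 8, and outside coding genes for 183 (81.7%, against 53.2%).

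The reads were spread over many genes. The 12 highest windows held 24.1% of the summed CPM of tRNA windows, and the 50 highest held 59.4%. The windows fell into 68 clusters when those up to 500 kb apart were joined, 43 of them of a single window. The cluster on chromosome 13 beside the histone genes (chr13:21160562-23521922) held 83 windows over 75 of its 102 tRNA genes, with 17 amino acids among them, and 26.0% of the summed CPM. Next in size were a cluster of 15 windows on chromosome 3 (chr3:96321744-96500887), with a mean summed level of 321 CPM, and one of 12 windows on chromosome 1 (chr1:171033446-171111472), with 222 CPM.

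**Figure D1:**
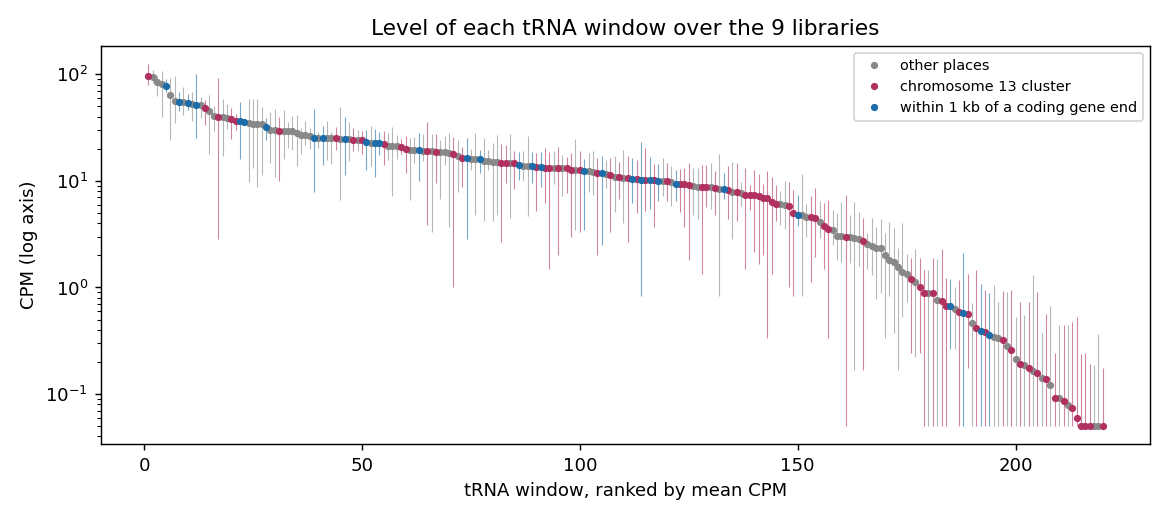
Mean level of each tRNA window (points) over the 9 libraries and its range from lowest to highest library (lines), in CPM on a log axis, ranked by mean; values under 0.05 CPM are drawn at 0.05, and the 4 windows without reads are left out. Chromosome 13 windows stand among the highest, up to 97.5 CPM, and among the lowest.

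The highest window of all lay over n-TSaga1, a serine tRNA gene in the chromosome 13 cluster (window chr13:21937043-21937642, the whole gene inside it). It had 96.9, 125 and 79.2 CPM at 0 min, 91.7, 105 and 81.9 CPM at 15 min and 112, 95.8 and 90.1 CPM at 30 min. The 3 times overlapped. Next was n-TQttg6, a glutamine gene on chromosome 11 (window chr11:95858627-95859226, part of the gene outside it). It had 110, 108 and 95.7 CPM at 0 min, 82.2, 89.8 and 83.6 CPM at 15 min and 84.2, 95.2 and 106 CPM at 30 min. Its 15 min libraries all lay below its 0 min libraries, by a log2 change of -0.30 ± 0.12 (SE) that missed the threshold (adjusted p = 0.119, edgeR's quasi-likelihood test with Benjamini-Hochberg adjustment). The means of these 2 windows, 97.5 and 94.9 CPM, lie within the spread of their libraries.

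Next in mean level were n-TEttc6, a glutamate gene on chromosome 14 (84.4 CPM), and n-TRcct2, an arginine gene on chromosome 17 (81.0 CPM). For n-TRcct2 the 15 min libraries had 40.2, 74.7 and 82.6 CPM, against 68.2, 93.1 and 82.9 CPM at 0 min and 107, 98.6 and 82.2 CPM at 30 min, so that library 1 alone was far below the rest. Its neighbour n-TPcgg1, a proline gene in the same cluster, had 24.0 CPM in the same library and 58.3 to 92.8 CPM in the other 8. The window over n-TEctc7 and n-TGtcc4 in the chromosome 1 cluster ranged from 35.2 to 95.5 CPM, both extremes at 30 min.

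Windows at coding gene ends were among the high ones. That over n-TWcca2, a tryptophan gene, was centred 13 bp from an end of Tmpo, which encodes a protein of the inner nuclear membrane, and part of the tRNA gene lies outside the window. It had 72.4, 77.7 and 76.3 CPM at 0 min, 91.3, 75.7 and 79.7 CPM at 15 min and 68.0, 76.4 and 81.8 CPM at 30 min, a narrow range in which 15 min library 1 was the highest. The window over n-TSgct7, a serine gene, was centred 16 bp from an end of Knl1, a kinetochore gene, and averaged 53.3 CPM. It too holds only part of the tRNA gene. That over n-TYgta9, a tyrosine gene, lay 856 bp from an end of Agbl5 and averaged 54.8 CPM. This window ends at chr5:30888083 and the tRNA gene spans chr5:30888083-30888171, so nearly all of the gene lies outside. Another window, which overlaps it, holds the whole gene. Reads of the coding gene and of the tRNA gene in such a window cannot be told apart, since the strand that was counted is not given in the sources used here. The 33 windows at coding gene ends held 19.6% of the summed CPM.

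In sum over all 224 windows the 0 min libraries had 2741, 3826 and 3986 CPM, the 15 min libraries 2274, 3246 and 3975 CPM and the 30 min libraries 3402, 3384 and 3867 CPM. The times overlapped, with means of 3518 ± 677, 3165 ± 853 and 3551 ± 274 CPM (SD, n = 3 libraries each). Library 1 was the lowest at 0 and at 15 min. The ratio of the highest to the lowest library was 1.75, larger than any difference between the means. tRNA windows took 0.228% to 0.399% of the reads in windows. These levels are averages over all cells, so fewer cells and less nascent RNA per cell cannot be told apart.

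**Figure D2:**
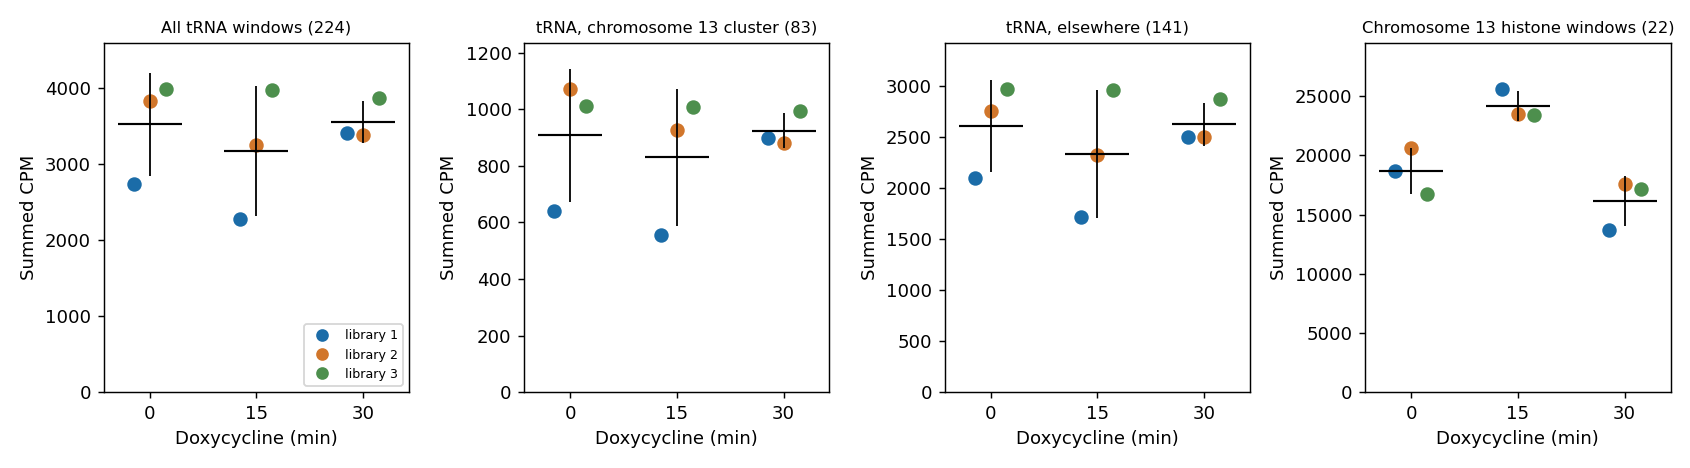
Summed CPM by minutes of doxycycline for all tRNA windows, the chromosome 13 cluster, the tRNA windows elsewhere and the chromosome 13 histone gene windows; points are libraries, the horizontal bar is the mean and the vertical bar ± 1 SD. Library 1 is lowest among tRNA windows at 0 and 15 min, whereas the 3 histone values at 15 min, 23356 to 25605 CPM, lie above all others.

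The low library 1 at 15 min was a property of most tRNA windows. It was the lowest of the 9 libraries in 101 of the 172 tested tRNA windows (58.7%), against 10.2% of all tested windows, and 0 min library 1 was the lowest in 31. Among windows with a mean of at least 20 counts, the median coefficient of variation between libraries of a time was 28.4% at 0 min and 34.2% at 15 min for the 155 tRNA windows, against 16.1% at both times for all. At 30 min it was 13.8% and 13.6%. The 15 min library 1 was also the deepest, with 5980366 reads in windows, and the part of depth in these low values was not tested. Medians over all tRNA windows and over the chromosome 13 cluster are therefore also given without it.

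The widest range of a well-filled window was at the edge of the chromosome 13 cluster, over n-TEctc11, a glutamate gene (chr13:21160562-21161161). It had 14.2, 55.3 and 50.1 CPM at 0 min, 2.83, 30.3 and 57.6 CPM at 15 min and 22.2, 33.9 and 92.2 CPM at 30 min. Library 1 was the lowest at each time and the times overlapped. Singled out after their values were seen, n-TYgta8 on chromosome 13 (bidir_43470) had 1.00 CPM in 15 min library 1 and 10.1 to 25.7 CPM in the other 8. Likewise n-TGgcc5 on chromosome 11, 26 bp from an end of Hes7 (bidir_29037), had 0.833 CPM there, 2.13 CPM in 0 min library 1 and 7.05 to 23.3 CPM in the others.

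Between 0 and 15 min, 3 of the 172 tested tRNA windows fell and 0 rose (edgeR's quasi-likelihood test, adjusted p under 0.05 over all 54299 tested windows). Among all tested windows 8.25% were called: 4.29% rose and 3.96% fell. Without 15 min library 3, 26 of 172 tRNA windows (15.1%) were called, 25 lower and 1 higher, against 10.9% of all windows then tested. By the DESeq2 Wald test 3 fell and 0 rose as well, and at an unadjusted p under 0.05 there were 15, of which 13 were lower (all tested windows: 23.2%). The median log2 change of tRNA windows was -0.22, against 0.02 over all tested windows, and 125 of 172 (72.7%) had a change below 0, against 48.0%. Without 15 min library 1 this median was 0.07, without 15 min library 3 it was -0.45, and with scaling factors from windows at coding gene ends it was -0.06. The 15 min libraries lay wholly below those at 0 min in 7 tRNA windows and wholly above in 4, against 11.8% and 13.7% of all tested windows.

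The largest of the 3 falls was over n-TQttg1, a glutamine tRNA gene on the X chromosome (bidir_166025, chrX:13858610-13859209). It is 12126 bp from an end of Cask, the nearest coding gene, and part of the tRNA gene lies outside the window. It had 12.6, 16.8 and 21.2 CPM at 0 min, 3.50, 5.15 and 9.23 CPM at 15 min and 9.11, 12.1 and 24.7 CPM at 30 min. All 15 min libraries lay below all 0 min libraries. The log2 change was -1.53 ± 0.33 (adjusted p = 0.00436 by edgeR), a fold of 2.90 lower, and it stayed called in 9 of 9 fits that left out a library (adjusted p up to 0.0445). Between 15 and 30 min the window rose again, by 1.38 ± 0.33 (adjusted p = 0.0470 by edgeR). There the groups overlap, the rise stayed called in 4 of 9 such fits, and the DESeq2 Wald test gave an adjusted p of 0.202. Without 30 min library 3 the log2 change was 0.89.

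The window over n-TNgtt8, an asparagine gene on chromosome 11 (bidir_31472, chr11:97702460-97703059), is centred 325 bp from an end of Pcgf2, which encodes a Polycomb protein. It holds only part of the tRNA gene. It had 28.0, 21.9 and 23.9 CPM at 0 min, 12.7, 9.91 and 16.8 CPM at 15 min and 19.5, 23.3 and 19.2 CPM at 30 min. The 15 min libraries were below all others. The log2 change from 0 to 15 min was -0.93 ± 0.20 (adjusted p = 0.00377 by edgeR), and it stayed called in 9 of 9 fits without a library. A second window, which holds the whole tRNA gene, is centred 158 bp from that end and shares bases with the first. It had a change of -0.46 (adjusted p = 0.169 by edgeR). The whole cluster, 5 windows over asparagine and cysteine genes with 4 of them at coding gene ends, summed to 112 ± 17.0, 83.2 ± 29.8 and 103 ± 7.16 CPM at 0, 15 and 30 min (SD, n = 3).

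The last was over n-TVcac6, a valine gene at the edge of the chromosome 1 cluster (bidir_12025, chr1:171110873-171111472). It had 9.74, 14.1 and 16.3 CPM at 0 min, 7.17, 7.63 and 8.26 CPM at 15 min and 9.47, 8.20 and 8.30 CPM at 30 min. The 15 min and the 30 min libraries both lay below all 0 min libraries, and overlapped each other. The log2 change from 0 to 15 min was -0.78 ± 0.23 (adjusted p = 0.0352 by edgeR). It lost the call without 0 min library 2 or 3 or 15 min library 1 or 2 (adjusted p up to 0.154), with only the 2 groups compared (adjusted p = 0.0570 by edgeR) and with scaling from coding gene ends (adjusted p = 0.113 by edgeR). None of the 3 windows has its centre within 150 bp of its tRNA gene: the distances are 257, 237 and 271 bp. Each of the 3 holds only part of that gene.

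**Figure D3:**
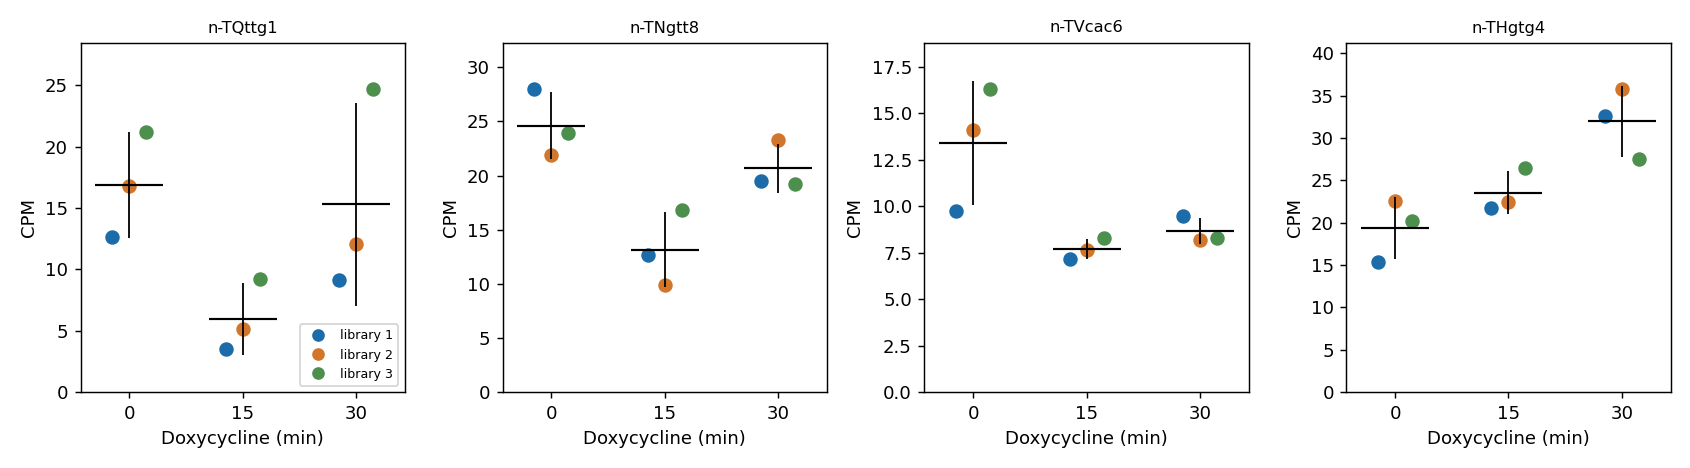
CPM by minutes of doxycycline in the 4 tRNA windows called in at least 1 comparison; points are libraries, the horizontal bar is the mean and the vertical bar ± 1 SD. The first 3 are lowest at 15 min, and n-THgtg4 is highest at 30 min, at 27.5 to 35.8 CPM.

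Between 0 and 30 min 1 tRNA window rose and 0 fell (edgeR's quasi-likelihood test), against a background of 1.74% of all tested windows, with 1.24% higher and 0.497% lower. The DESeq2 Wald test also called 1, and 11 had an unadjusted p under 0.05, against 15.2% of all tested windows. The 30 min libraries lay wholly above those at 0 min in 9 tRNA windows and wholly below in 8, against 11.0% and 9.39% of all. The median log2 change was 0.00, with 86 windows (50%) below 0, against 50.1% of all. Leaving out 0 min library 1 gave -0.18, and leaving out 0 min library 3 gave 0.14. The one called window lay over n-THgtg4, a histidine gene on chromosome 2 (bidir_90815, chr2:122375411-122376010), which holds the whole gene. It had 15.4, 22.6 and 20.2 CPM at 0 min, 21.7, 22.5 and 26.5 CPM at 15 min and 32.6, 35.8 and 27.5 CPM at 30 min. All 30 min libraries lay above all others. The log2 change was 0.73 ± 0.18 (adjusted p = 0.0279 by edgeR), and it stayed called in 4 of 9 fits without a library, with adjusted p up to 0.221 without 0 min library 1.

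The other windows of this histidine cluster did not pass the test. That over n-THgtg3 had 40.9, 36.5 and 62.1 CPM at 0 min and 52.5, 56.1 and 62.8 CPM at 30 min, a log2 change of 0.30 ± 0.17 (adjusted p = 0.418 by edgeR). That over n-THgtg3 and n-THgtg5 overlaps the former and holds neither gene whole. It had 5.85, 8.50 and 8.65 CPM at 0 min and 12.2, 13.8 and 10.4 CPM at 30 min, a change of 0.69 ± 0.23 (adjusted p = 0.133 by edgeR). In the latter all 30 min libraries lay above all 0 min libraries. The cluster summed to 73.6 ± 15.3, 87.8 ± 14.3 and 101 ± 4.21 CPM at 0, 15 and 30 min (SD, n = 3).

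Between 15 and 30 min 1 tRNA window rose, that over n-TQttg1, and 0 fell (edgeR's quasi-likelihood test), against a background of 0.704%, with 0.214% higher and 0.490% lower. The DESeq2 Wald test called 0, and 15 had an unadjusted p under 0.05, against 9.63% of all tested windows. The 30 min libraries lay wholly above those at 15 min in 8 tRNA windows and wholly below in 3, against 7.80% and 8.17% of all. The median log2 change was 0.20, against -0.01 over all tested windows, and 47 of 172 (27.3%) were below 0, against 51.2% of all. Without 15 min library 1 the median was -0.04 and 0 windows were called, against 0.341% of all windows then tested. Without 15 min library 3 the median was 0.38 and 12 (6.98%) were called, against 0.928% of all then tested. The comparisons share libraries, so the lower median at 15 against 0 min and the higher one here both draw on the same 15 min libraries.

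**Figure D4:**
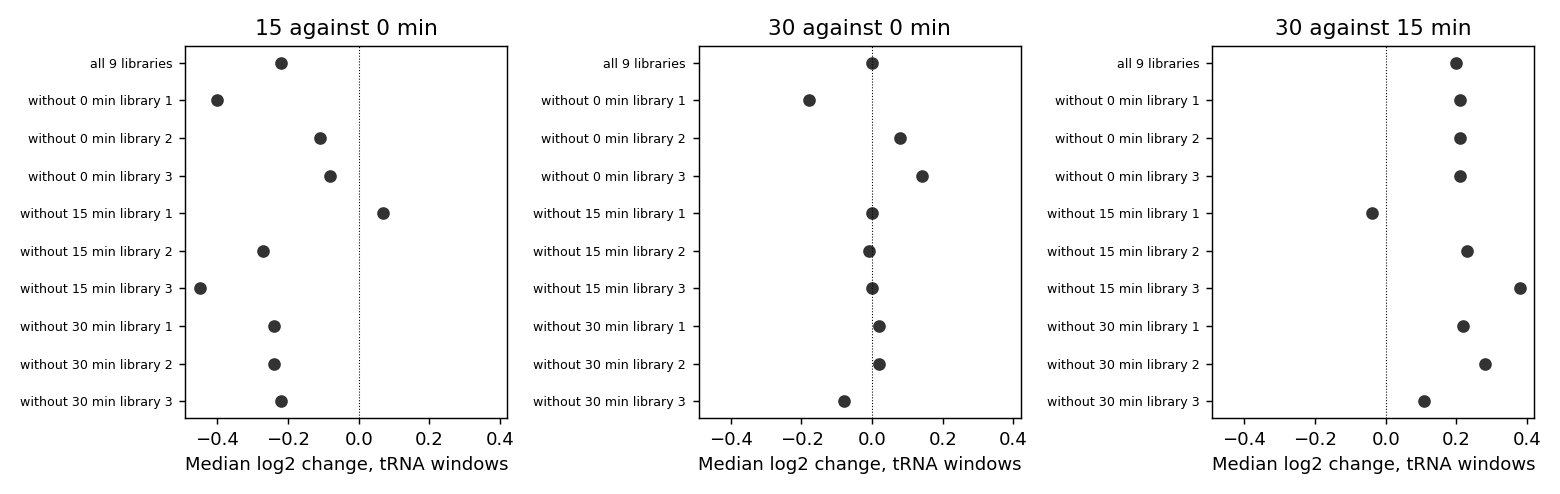
Median log2 change of the tested tRNA windows in each comparison, with all 9 libraries and with each library left out. At 15 against 0 min it runs from -0.45 to 0.07 and at 30 against 15 min from -0.04 to 0.38, and leaving out 15 min library 1 takes it across 0 in both.

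The chromosome 13 cluster gave median changes near those of the tRNA windows elsewhere. Its summed level was 640, 1072 and 1011 CPM at 0 min, 556, 925 and 1008 CPM at 15 min and 899, 881 and 994 CPM at 30 min. Elsewhere the 0 min libraries had 2101, 2754 and 2975 CPM, those at 15 min 1718, 2322 and 2967 CPM and those at 30 min 2503, 2503 and 2873 CPM. In both sets the times overlapped and library 1 was lowest at 0 and 15 min. Of the 58 tested windows of the cluster 0 were called in any comparison by edgeR or by the DESeq2 Wald test, with 3, 3 and 4 at an unadjusted p under 0.05 at 15 against 0, 30 against 0 and 30 against 15 min. Its median log2 changes were -0.24, -0.01 and 0.17 in that order, and those of the 114 tested windows elsewhere were -0.20, 0.00 and 0.21. Without 15 min library 1 the cluster's median was 0.12 at 15 against 0 min and -0.06 at 30 against 15 min. The difference between the sets was not tested.

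Below n-TSaga1 in the cluster, the window over the glutamine gene n-TQctg10 averaged 48.2 CPM. It ends at chr13:21920201 and the gene spans chr13:21920200-21920271, so nearly all of the gene lies outside. The window had 33.5, 57.7 and 48.0 CPM at 0 min, 45.0, 55.5 and 41.5 CPM at 15 min and 46.6, 54.8 and 50.7 CPM at 30 min. The times overlapped. The window over the serine gene n-TScga1 had 13.3, 39.4 and 38.3 CPM at 0 min and 10.0, 34.7 and 32.3 CPM at 15 min, so that library 1 stood apart at both times, and 30.2, 31.1 and 38.4 CPM at 30 min. The window over n-TIaat10, an isoleucine gene, ran from 30.1 to 42.3 CPM without a low library 1 at 15 min, which had 41.7 CPM. Log2 changes at 15 against 0 min in these 3 were 0.04, -0.24 and 0.23, and none passed the test.

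The histone gene windows of chromosome 13 rose and then fell. Some lie within the span of the tRNA cluster. Those from H4c8 (chr13:23530792) on, with the windows of H1f4 and H1f1 among them, lie past its end at chr13:23521922. The 22 windows at chromosome 13 histone gene ends and free of tRNA genes summed to 18682, 20634 and 16749 CPM at 0 min, 25605, 23446 and 23356 CPM at 15 min and 13699, 17551 and 17181 CPM at 30 min. All 15 min libraries lay above all others, library 1 included. By edgeR 13 of 21 tested rose from 0 to 15 min, with a median log2 change of 0.40, and 19 of 21 fell from 15 to 30 min, with a median of -0.59. The first count depends on single libraries: it was 4 without 0 min library 3 or without 15 min library 1, 7 without 0 min library 1 or without 15 min library 2, and 6 by the DESeq2 Wald test. It was 21 with scaling from coding gene ends. Leaving out 15 min library 1 took the second count to 12, and leaving out 30 min library 1 took it to 11.

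Windows at linker histone genes, singled out after their values were seen, had the largest rises. That of H1f4 and H2bc6 averaged 280, 483 and 240 CPM at the 3 times, a log2 change of 0.79 from 0 to 15 min, and that of H1f1 averaged 249, 425 and 256 CPM, a change of 0.77. Rises at H2ac1 and H2bc1, which are not linker histone genes, were nearly as large, at 0.76 ± 0.22 and 0.72 ± 0.26 (SE). The span of the tRNA cluster held 181 windows over no tRNA gene and at no histone gene end. Of these, 88 were tested, with a median log2 change of 0.04 from 0 to 15 min, 3 called higher and 2 lower. Of the 83 tRNA windows of this cluster, 23 lie before the first histone gene window on the chromosome and 0 after the last. The window over the serine gene n-TSgct5 is centred 7208 bp from an end of H2bc11, and had 24.8, 37.6 and 43.8 CPM at 0 min, 28.7, 36.2 and 48.3 CPM at 15 min and 43.4, 41.7 and 37.0 CPM at 30 min, with overlapping times. Histone changes are given here only as the neighbours' values, and the difference from the tRNA windows was not tested.

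**Figure D5:**
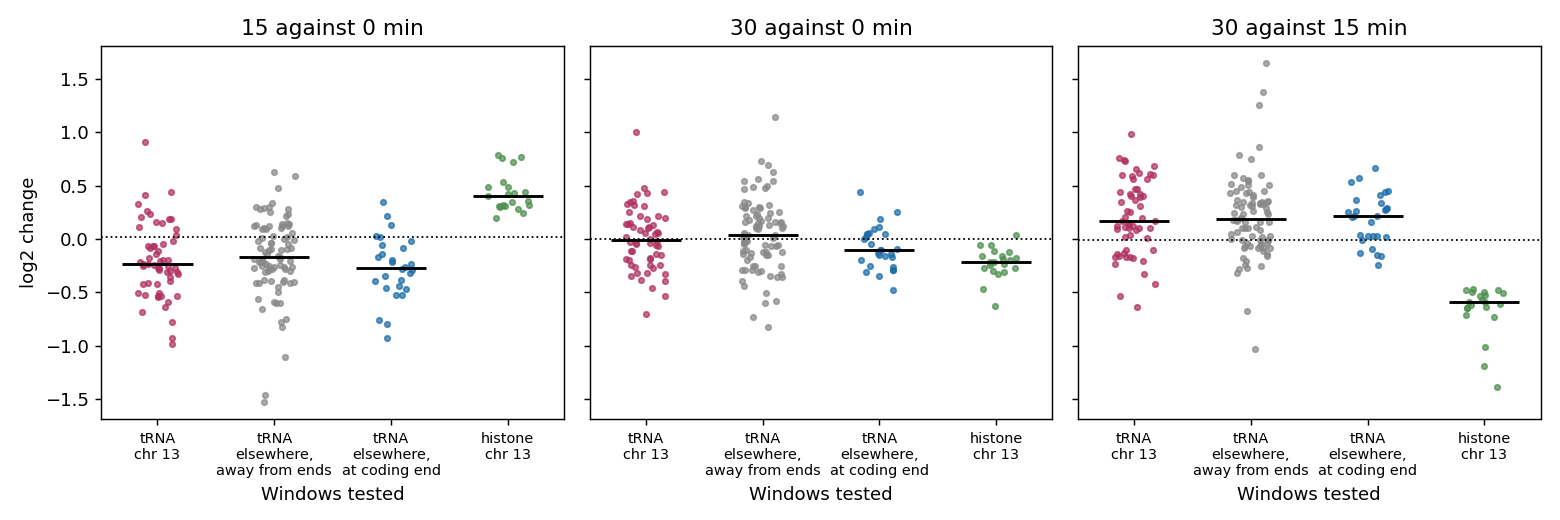
Log2 change of each tested window (points) in the 3 comparisons for tRNA windows of the chromosome 13 cluster, tRNA windows elsewhere away from and at coding gene ends, and chromosome 13 histone gene windows; bars are medians and the dotted line is the median of all tested windows. At 15 against 0 min the tRNA medians lie below the dotted line and the histone median, 0.40, above it.

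tRNA windows at coding gene ends summed to 651, 689 and 820 CPM at 0 min, 496, 591 and 769 CPM at 15 min and 656, 653 and 698 CPM at 30 min. The times overlapped. Of the 28 tested, 1 fell from 0 to 15 min (3.57%), that at Pcgf2, against 8.61% of all 12617 tested windows at coding gene ends, and 0 were called in the other comparisons by edgeR. Their median log2 change at 15 against 0 min was -0.27, and it was -0.20 for the 144 tested away from such ends, of which 2 fell. Over all tested windows the median was -0.18 at coding gene ends and 0.11 away from them. The difference between these places was not tested. The tRNA windows outside coding genes, with a median of -0.21 at 15 against 0 min over 138 tested, stood against 0.18 for all windows outside coding genes, with the low 15 min library 1 beside it. The 6 tested windows inside coding genes had changes from -0.45 to -0.04.

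Among the high windows at ends, n-TStga3 near Ctnna3 (470 bp from its end) had 45.5, 39.6 and 100 CPM at 0 min, 25.2, 33.4 and 71.4 CPM at 15 min and 47.2, 44.0 and 57.4 CPM at 30 min, library 3 being the highest at each time. The window over n-TKctt27, a lysine gene 20 bp from an end of Aloxe3, had 6.02 CPM in 0 min library 1 and 2.83 CPM in 15 min library 1, against 17.5 to 25.3 CPM in the other 7. Such low values in library 1 were thus found at coding gene ends too, although not at n-TWcca2 beside Tmpo.

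By amino acid, the median log2 change at 15 against 0 min ran from -0.44 for valine (7 tested windows) to 0.10 for histidine (6 tested). It was below 0 for all others. These medians share the low 15 min library 1 and were not taken again without it. Over all tested tRNA windows the median was 0.07 without that library. Serine windows summed to the most, 404 CPM on average over the 9 libraries, followed by glutamate with 314 CPM, and phenylalanine windows to the least, 20.9 CPM. The ratio of the highest to the lowest library was 1.27 for tryptophan, 1.36 for tyrosine and 1.47 for asparagine at the low end, and 3.61 for threonine and 3.33 for glycine. Windows over genes of several amino acids, 18 in all, were counted under none of them and are missing from these sums and medians.

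By cluster, the 14 tested windows of chromosome 3 had a median log2 change of -0.01 at 15 against 0 min and 0.05 at 30 against 0 min. The 8 tested windows of the chromosome 1 cluster had -0.43 and 0.02. The chromosome 3 cluster summed to 230, 397 and 343 CPM at 0 min and 254, 338 and 355 CPM at 15 min, and the chromosome 1 cluster to 165, 261 and 293 CPM at 0 min and 113, 159 and 296 CPM at 15 min, with overlap in both. The small cluster on chromosome 11 near Hes7 and Aloxe3 had the widest range, from 6.50 CPM in 15 min library 1 to 63.4 CPM in 15 min library 3.

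The genes that make and serve tRNAs were then read from lists. Among RNA polymerase III subunits 11 of 13 genes had a tested window at a gene end. Of all tested windows at coding gene ends 1.32% were called higher and 8.61% lower at 15 against 0 min. Of the 11 subunits 1 rose and 1 fell by edgeR. Both encode subunits shared with RNA polymerase I. Polr1c had 38.6, 45.2 and 40.4 CPM at 0 min, 71.3, 74.9 and 62.9 CPM at 15 min and 44.5, 39.1 and 44.3 CPM at 30 min, so that all 15 min libraries lay above the rest. Its log2 change was 0.76 ± 0.13 from 0 to 15 min (adjusted p = 0.000615 by edgeR) and -0.71 ± 0.13 from 15 to 30 min (adjusted p = 0.00391 by edgeR, no longer called without 30 min library 2). Polr1d had 30.1, 20.6 and 25.4 CPM at 0 min, 14.5, 9.72 and 11.2 CPM at 15 min and 19.3, 23.9 and 18.7 CPM at 30 min, all 15 min libraries being the lowest. Its log2 change from 0 to 15 min was -1.10 ± 0.20 (adjusted p = 0.000967 by edgeR). Both changes from 0 to 15 min stayed called in 9 of 9 fits without a library. No subunit was called at 30 against 0 min, and the 9 other subunits had log2 changes from -0.49 (Polr3g) to 0.16 (Polr3f) at 15 against 0 min, none of them called.

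Of 14 tested factors and regulators of polymerase III, 0 were called in any comparison by edgeR, with log2 changes at 15 against 0 min from -0.31 for Ssb, which binds the ends of new polymerase III transcripts, to 0.13 for Gtf3c3 and Gtf3c5, subunits of TFIIIC. Of 30 tested genes of tRNA processing, modification and export, 4 fell from 0 to 15 min, against 8.61% of all tested windows at coding gene ends. The list's median log2 change was -0.03, with 17 of 30 below 0. Wdr4, a partner of the tRNA methyltransferase Mettl1, fell by 0.71 on the log2 scale, from 24.8, 23.5 and 20.2 CPM to 14.5, 12.6 and 15.1 CPM (adjusted p = 0.0207 by edgeR). Tsen54, of the endonuclease that splices tRNA, fell by 0.79 (adjusted p = 0.0350 by edgeR). Xpot, the tRNA exporter, named here after its value was seen, fell by 0.43 (adjusted p = 0.0457 by edgeR).

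Of 17 tested cytosolic aminoacyl-tRNA synthetases, which charge tRNAs, 2 fell from 0 to 15 min by edgeR: Kars, the lysyl enzyme, by 0.56 (53.7, 53.0 and 51.1 CPM at 0 min, 33.2, 35.1 and 38.9 CPM at 15 min, adjusted p = 0.0087) and Sars, the seryl enzyme, by 0.49 (adjusted p = 0.0473). The list's median was 0.02, with 7 of 17 below 0, beside the same 8.61% called lower at coding gene ends. No gene of these last lists was called at 30 min against either earlier time. The calls of the 4 processing genes and the 2 synthetases were lost with scaling from coding gene ends, at adjusted p from 0.0706 to 0.279 by edgeR, whereas Polr1c and Polr1d stayed called. Each of the 6 also lost its call without 15 min library 1 or library 2.

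Other short polymerase III genes were read in the same way: Rmrp and Rpph1 (RNA of the RNase MRP and RNase P enzymes, the latter trimming tRNA precursors), Rn7s1 and Rn7s2 (signal recognition particle RNA), and the Y RNA genes Rny1 and Rny3. All 6 were tested and 0 were called in any comparison by edgeR. Rn7s2 had 491, 2819 and 2736 CPM at 0 min, 1250, 1531 and 1209 CPM at 15 min and 423, 1742 and 2091 CPM at 30 min. Library 1 was lowest at 0 and 30 min. Rmrp had 501, 1152 and 779 CPM at 0 min, 759, 977 and 521 CPM at 15 min and 320, 776 and 2038 CPM at 30 min, with overlap between all times. Rny1 was steadier, with 26.7 to 42.6 CPM, and the window at Rn7sk had too few reads to test, 0.186 to 1.91 CPM.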

How the data were processed

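The authors deposited raw read counts of 9 libraries in 174289 windows of 600 bp, and lists of other values, namely positions on mm10. Per the submitters' processing notes HISAT2, featureCounts and DESeq2 1.26.0 were used, with settings not given in the sources used here, and Tfit and muMerge appear in the file names. The spiked Drosophila nuclei (1% per the labels) were not used, so changes are relative to other mouse windows.

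Windows were joined by position to RefSeq genes of GRCm38.p6, whose table gives no strand, so a gene end is either end of a gene. tRNA genes of the mitochondrion (22) and of unplaced scaffolds (5) were left out of 430. A list gene took its window of highest mean count centred within 1 kb of a gene end. Among 38 synthetase symbols, older and newer, 20 matched.

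All 9 libraries entered 1 quasi-likelihood fit in R 4.3.3 with edgeR 4.0.16 (TMM factors 0.971 to 1.02, edgeR's expression filter, 54299 windows tested, common dispersion 0.0228), tested on simulated data first. Benjamini-Hochberg adjustment ran over all tested windows, with calls at 0.05. For the SE, each log2 change was divided by the root of its F statistic. Alternatives were DESeq2 1.42.0, other scalings and filters, 2 groups alone, a replicate block and each library left out.

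Members, lists and tests were chosen with earlier results of these data known. Named windows are the 12 of highest mean, the called ones, the 10 highest of the chromosome 13 cluster, the highest of each cluster of 3 or more and the 3 highest at coding gene ends; not all are described, and some list genes are not reported here. Over all tested windows the deviations of same-numbered libraries correlated from -0.0479 to 0.175, and those of differently numbered ones from -0.199 to 0.102. Between 0 and 15 min the same-numbered values were 0.0438, 0.175 and 0.101. These correlations are weak, and the numbers were not taken as pairs.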

Additional observations from a re-analysis of the deposited data

How the results depend on the processing

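With other scalings, 3 to 4 tRNA windows were called at 15 against 0 min (with factors from coding gene ends 1 was higher and 2 lower) and 1 in each other comparison. Where counts moved at 15 against 0 min, from 3, they were 12 without a filter on low counts, 8 with the replicate number as a block, 1 over windows that overlap no other and 0 over windows centred within 150 bp of a tRNA gene. Without the filter that is 5.45% of tRNA windows against 2.41% of all then tested. With the block it is 4.65% against 8.85%, and over windows that overlap no other 0.926% against 10.4%. Leaving out 1 library gave 2 to 26, the most without 15 min library 3. The 12 and the 8 were all lower. At 30 against 0 min, leaving out 1 library gave 0 to 1, with 0 without 0 min library 1 or 3 or 30 min library 1 or 2. Without 30 min library 3 the 1 call was another window, bidir_12016, which was lower (log2 change -0.94, adjusted p = 0.0347 by edgeR), and n-THgtg4 lost its call (adjusted p = 0.0550). At 30 against 15 min, from 1, there were 3 without a filter and 0 with at least 20 counts in 3 libraries, over windows that overlap no other, over windows centred within 150 bp, with only the 2 groups, and by the DESeq2 Wald test. The 3 were 1.36% of tRNA windows, against 0.256% of all then tested. Leaving out 1 library gave 0 to 12, the most without 15 min library 3. The replicate block changed the count in no other comparison (1 and 1). Over all tested windows same-numbered libraries correlated only weakly, at most 0.175, and pairing over tRNA windows alone was not tested. There the summed level of library 1 was lowest at 0 and 15 min, and that of library 3 was highest at each time. Calls under the block are therefore not read as a measure of strength.

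A limit of 500 bp for coding gene ends put their median at 15 against 0 min at -0.32, and joining windows up to 100 kb left the chromosome 13 median at -0.24. At these depths 52 windows were too thin to test, and for the summed level the spread between libraries at 0 and 15 min is larger than the differences between times. The treatment of reads with several matches bears on near-identical tRNA genes and was not tested.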
